A study of Mus musculus with 12 samples.

Results

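The 9 genes described here set or restrain the activity of mTORC1, the growth-promoting kinase complex: Mtor, Rptor, Rheb, Tsc1, Tsc2, Ddit4, Sesn1, Sesn3 and Pik3ip1. They were taken by their Entrez gene identifiers from a count table of 27179 genes, and all 9 were found and passed the filter on low counts. The table held 12 RNA-seq libraries of splenic B cells from male C57BL/6 mice, 2 for each of 6 stages. Naive cells were unstimulated and sorted as IgD-high, IgM+ and B220+ without TCRβ. All other cells were cultured with lipopolysaccharide (LPS, a bacterial cell wall component that activates B cells through Toll-like receptor signalling) at 25 µg/ml. Cells at 3 h, 10 h and 33 h were sorted as CD69+ and undivided by the dilution of a dye. At day 4, CD138-negative cells that kept CD22 (expanded) were sorted apart from CD138+ cells that had lost it (plasmablasts). All stages are bulk populations, and in such samples fewer cells of a type and less RNA per cell cannot be told apart. The activated stages come from a single stimulus in vitro. Their cells were isolated by negative selection and then cultured, and no library came from cells cultured without LPS. LPS, culture and handling therefore cannot be told apart in comparisons that start from naive cells.

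mTORC1 couples growth to nutrients and growth signals. Its kinase is encoded by Mtor, and raptor, encoded by Rptor, brings substrates to it. The small GTPase Rheb switches the kinase on at the lysosome, and the TSC complex, built on the products of Tsc1 and Tsc2, switches Rheb off. Phosphoinositide 3-kinase (PI3K) and Akt signals release this block. Ddit4 (REDD1) acts to keep TSC active under stress, the sestrins restrain mTORC1 through the amino acid sensing branch, and Pik3ip1 is a membrane protein that inhibits PI3K. Resting lymphocytes are known to keep several of these brakes, while activated B cells grow before they divide.

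Total counts ran from 23026619 to 60585587 per library, and the 9 genes had between 125 counts (Pik3ip1, 3 h replicate 1) and 7398 counts (Tsc2, 33 h replicate 1). Levels below are RPKM, read counts divided by exon length and by TMM-scaled library size (a scaling that sets the bulk of genes equal between libraries), and each library is given as replicate 1 and then replicate 2. The 6 B cell markers checked were detected in every stage, and the summed level of the 6 plasmablast markers was 10800 and 10700 RPKM in plasmablasts against 908 and 1070 in expanded cells. Pax5, which plasma cells silence, was at 7.54 and 6.42 RPKM in plasmablasts, against 77.2 and 75.4 in expanded cells and 408 and 385 in naive cells. Naive libraries held RNA of other cells: the 10 myeloid markers summed to 426 and 177 RPKM against 2.64 and 3.91 at 3 h, and the 4 erythroid markers to 376 and 288 RPKM against 0.0997 and 0.719. The 6 NK cell markers summed to 16.4 and 13.5 RPKM in naive libraries and to 2.48 and 3.06 at 3 h. The 14 T cell markers summed to 37.2 and 40.9 RPKM in naive libraries, of which Lck, also made by B cells, gave 29.4 and 32.3. Cd3e was at 0.185 and 0.081 there, Cd3d at 0.444 and 0.496, Cd3g at 0.433 and 0.455 and Trbc2 at 0.511 and 1.42. In plasmablasts the myeloid, erythroid and NK lists were also below the naive libraries (30.7 and 31.2, 0 and 0.118, and 1.36 and 1.74 RPKM), while the T cell list was at 38.5 and 38.7. Of that T cell sum Cd28 gave 20.3 and 23.1 RPKM, Trac 9.69 and 7.34 and Lck 4.5 and 4.83. Cd3e was at 0 in both, while Cd3g was at 1.37 and 0.931, Cd3d at 0.159 and 0.106 and Cd4 at 0.164 and 0.137. Of the plasmablast myeloid sum Ly6c2 gave 30.5 and 30.9 RPKM, while Lyz2 was at 0 in both. The part of these lists in the comparisons that start from naive cells was not tested.

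By 3 h of culture with LPS, 4 of the 9 genes, all brakes, had fallen beyond 1.5-fold, and the kinase and its activator had risen. Sesn1, Sesn3, Ddit4 and Pik3ip1 fell to between 0.169 and 0.307 of their naive level, whereas Mtor rose 1.75-fold and Rheb 1.85-fold. Rptor was the one gene of the 9 for which no change was called. Differential expression (DE) here means a change that exceeded 1.5-fold in edgeR's glmTreat with a Benjamini-Hochberg adjusted p below 0.05, and edgeR's quasi-likelihood F-test, with the same limit on the adjusted p, was used for a change of any size. Both were fitted on 12750 genes in all 12 libraries. From naive to 3 h, 2 of the 9 genes were DE upward and 4 downward, beside 21.0% and 24.3% of all genes tested. By the F-test 2 rose and 6 fell, beside 34.7% and 36.3%.

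**Figure D1:**
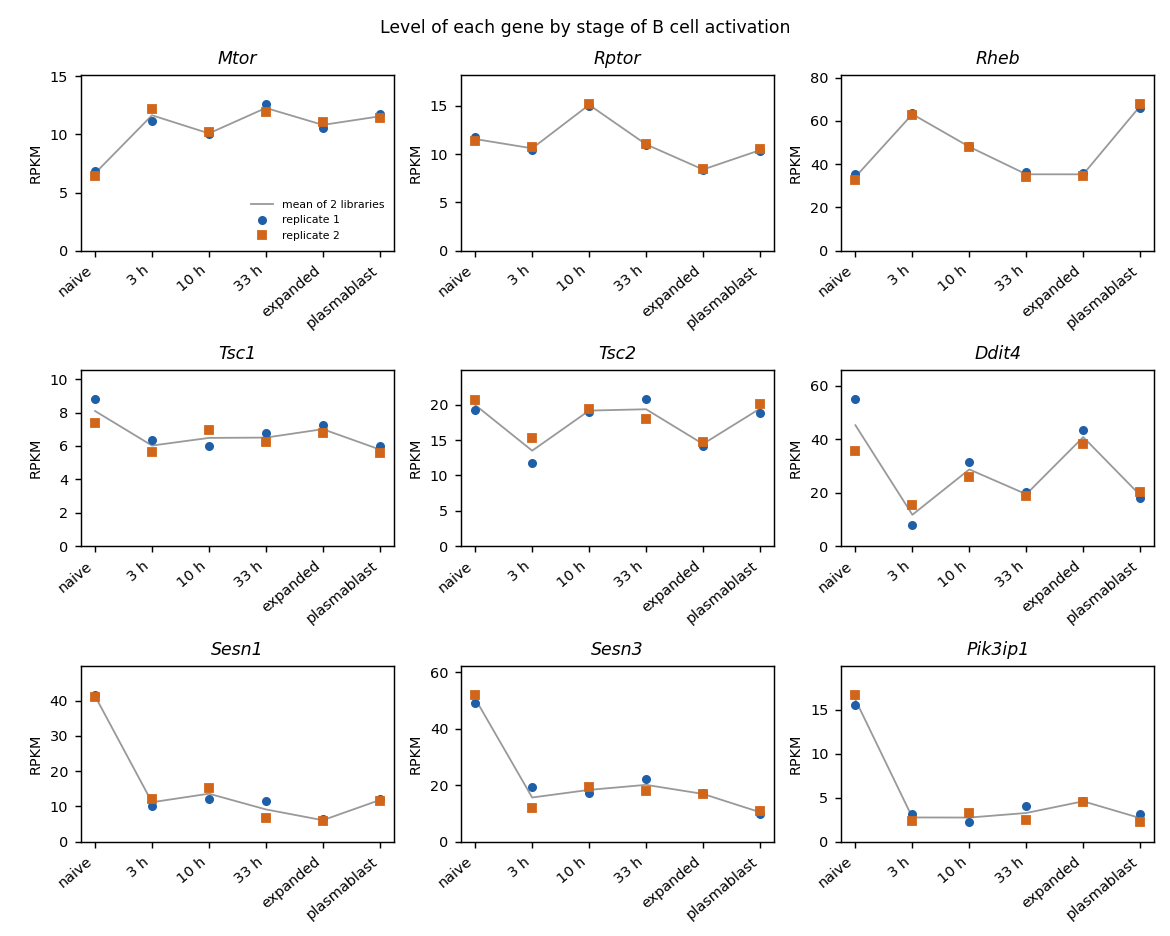
RPKM (vertical axis, linear and starting at 0) of each of the 9 genes against stage, with replicate 1 as circles, replicate 2 as squares and a grey line through the mean of the 2 libraries. Sesn1, Sesn3 and Pik3ip1 are highest in both naive libraries and low in every later one, Rheb has 2 peaks, at 3 h and in plasmablasts, and Ddit4 goes down and up more than once.

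Mtor (Entrez 56717, chr4:148448582-148557685 in GRCm38.p6) encodes the kinase itself. Its level was 6.89 and 6.42 RPKM in the naive libraries, then 11.14 and 12.16 (3 h), 10.02 and 10.17 (10 h), 12.63 and 11.93 (33 h), 10.59 and 11.05 (expanded) and 11.74 and 11.38 (plasmablast). Both naive libraries lay below all 10 activated ones. In order of level, 33 h, 3 h and plasmablasts overlapped with their neighbours, and expanded cells, 10 h and naive cells followed without overlap. The rise to 3 h was 0.81 on the log2 scale (SE 0.0852, glmTreat adjusted p = 0.0069). The rise was not DE when libraries were scaled by size alone (0.60, adjusted p = 0.36) or without 3 h replicate 2 (0.71, adjusted p = 0.059). Later steps were small. By the F-test it fell by 0.21 on the log2 scale from 3 h to 10 h (SE 0.0844, adjusted p = 0.047), which became 0.12 with scaling by library size alone, and rose by 0.28 from 10 h to 33 h (SE 0.0838, adjusted p = 0.015). The first was lost without 3 h replicate 2 or either 10 h library (adjusted p 0.13 to 0.24), with no filter on low counts (0.17), with at least 10 counts in every library (0.054), with only the 4 libraries compared (0.14) and with the removed genes kept (0.08). The second was lost without either 10 h library or 33 h replicate 1 (adjusted p 0.064 to 0.076) and with scaling by library size alone (0.058).

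Rptor (Entrez 74370, chr11:119602905-119899591) followed another course from its partner. It measured 11.72 and 11.38 RPKM in the naive libraries, then 10.42 and 10.75 (3 h), 14.98 and 15.19 (10 h), 10.94 and 11.05 (33 h), 8.38 and 8.41 (expanded) and 10.28 and 10.52 (plasmablast). The 10 h libraries were above all others and the expanded ones below all others, and among neighbours in this order only 3 h and plasmablasts overlapped. Its change to 3 h was -0.13 (95% interval -0.295 to 0.0443, F-test adjusted p = 0.17), and the F-test called it with scaling by library size alone (-0.33, adjusted p = 0.0023) and with a minimum of 10 counts in every library (-0.20, adjusted p = 0.029). The F-test then called a rise of 0.51 to 10 h (SE 0.0778, adjusted p = 8.5e-05), followed by -0.46 to 33 h (adjusted p = 0.0004), -0.39 to expanded cells (adjusted p = 0.0017) and 0.31 to plasmablasts (adjusted p = 0.0043). The last of these was -0.030 with scaling by library size alone, and none of the 4 exceeded 1.5-fold by glmTreat, although the rise to 10 h did with that scaling (0.84, adjusted p = 0.0033). From naive cells to plasmablasts the difference was -0.15 (95% interval -0.32 to 0.0182). The F-test called it with scaling by library size alone (-0.44, adjusted p = 0.00028) and with only the 4 libraries compared (-0.20, adjusted p = 0.011).

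Rheb (Entrez 19744, chr5:24802823-24842361) was the most abundant of the 9 per length in every activated stage except expanded cells, where Ddit4 exceeded it. It stood at 35.34 and 32.86 RPKM in the naive libraries, then 63.52 and 62.65 (3 h), 48.32 and 47.68 (10 h), 36.37 and 34.21 (33 h), 35.94 and 34.63 (expanded) and 65.83 and 67.83 (plasmablast). Naive, 33 h and expanded cells overlapped at the bottom, and the other 3 stages were apart from these and from each other. The rise to 3 h was 0.89 on the log2 scale (SE 0.0838, glmTreat adjusted p = 0.0011), and by the F-test it fell by 0.39 to 10 h (adjusted p = 0.0011) and fell by 0.44 to 33 h (adjusted p = 0.00086). With scaling by library size alone the first of these was -0.063 and not called (adjusted p = 0.54). From 33 h to expanded cells the difference was -0.00057 (95% interval -0.181 to 0.18). The rise from expanded cells to plasmablasts was 0.92 (SE 0.0833, glmTreat adjusted p = 0.00099). With scaling by library size alone neither rise passed the 1.5-fold test (0.68, adjusted p = 0.11, and 0.58, adjusted p = 0.5), and the F-test still called both.

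The 250 bases upstream of the Rheb and Ddit4 starts are printed because Rheb rose and Ddit4 fell by 3 h and theirs are, with Rptor's, the windows of the 9 genes that hold a searched motif. The sequences are RefSeq's on GRCm38.p6, written 5′ to 3′ on the minus strand, on which both genes lie, with the match in capitals. The letters searched on both strands were GTAAACA (FoxO), CACGTG (E-box), ACGTG (core of the hypoxia response element, contained in CACGTG), TGATGNAA (ATF4-type element) and TGACGTCA (cAMP response element).
Rheb, chr5:24842362-24842611: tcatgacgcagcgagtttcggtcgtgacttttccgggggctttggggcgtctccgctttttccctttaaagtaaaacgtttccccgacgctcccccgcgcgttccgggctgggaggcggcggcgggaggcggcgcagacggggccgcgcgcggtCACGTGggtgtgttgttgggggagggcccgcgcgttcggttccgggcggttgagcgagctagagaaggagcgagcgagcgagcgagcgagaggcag
Ddit4, chr10:59951771-59952020: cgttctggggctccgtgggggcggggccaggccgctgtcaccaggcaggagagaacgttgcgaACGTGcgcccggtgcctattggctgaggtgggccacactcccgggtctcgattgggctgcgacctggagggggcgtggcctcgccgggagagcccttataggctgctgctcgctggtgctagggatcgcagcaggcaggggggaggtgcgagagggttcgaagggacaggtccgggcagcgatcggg
CACGTG lay 96 bases before the Rheb start and was found in 6.02% of the 32851 windows of this length upstream of all gene starts. ACGTG lay 187 bases before the Ddit4 start and 34 before the Rptor start, and was found in 16.6% of all windows. GTAAACA, TGATGNAA and TGACGTCA were in none of the windows of the 9 genes, against 3.17%, 3.45% and 1.55% of all windows. These matches describe letters in a window, and binding was not measured in these libraries.

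Tsc1 and Tsc2 varied least. Tsc1 (Entrez 64930, chr2:28640993-28691172), whose product stabilises the complex, measured 8.79 and 7.40 RPKM in the naive libraries, then 6.38 and 5.67 (3 h), 6.01 and 6.96 (10 h), 6.77 and 6.23 (33 h), 7.23 and 6.78 (expanded) and 5.99 and 5.60 (plasmablast). Its highest stage mean was 1.4 times its lowest, and both naive libraries lay above all others. By the F-test it fell by 0.43 on the log2 scale to 3 h (SE 0.116, adjusted p = 0.0047), a call lost without naive replicate 1 (-0.30, adjusted p = 0.073), and it had no called change at any of the 4 later steps. With scaling by library size alone, however, the F-test called a rise of 0.44 to 10 h (adjusted p = 0.0047) and a change of -0.61 to plasmablasts (adjusted p = 0.00045). The latter, -0.28 with adjusted p = 0.057 here, was also called with no filter on low counts (adjusted p = 0.032) and with only the 4 libraries compared (adjusted p = 0.0047). Naive cells to plasmablasts differed by -0.48 (SE 0.115, F-test adjusted p = 0.0019), and this was DE with scaling by library size alone (-0.77, adjusted p = 0.039).

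Tsc2 (Entrez 22084, chr17:24595816-24632676) encodes the subunit that acts on Rheb. Its level was 19.27 and 20.65 RPKM in the naive libraries, then 11.71 and 15.28 (3 h), 18.92 and 19.41 (10 h), 20.75 and 17.96 (33 h), 14.13 and 14.78 (expanded) and 18.82 and 20.08 (plasmablast). Low values were confined to the 3 h and expanded libraries, and the other 4 stages overlapped. By the F-test it fell by 0.56 to 3 h (SE 0.118, adjusted p = 0.00082), rose by 0.50 to 10 h (adjusted p = 0.0022), fell by 0.42 to expanded cells (adjusted p = 0.012) and rose by 0.43 to plasmablasts (adjusted p = 0.007). None exceeded 1.5-fold by glmTreat, although the first did without 3 h replicate 2 (-0.80, adjusted p = 0.02) and the second with scaling by library size alone (0.83, adjusted p = 0.034). The fall to expanded cells was not called without 33 h replicate 1 or either expanded library (adjusted p 0.052 to 0.1), nor the rise to plasmablasts without expanded replicate 1 (0.39, adjusted p = 0.059) or with scaling by library size alone (0.089, adjusted p = 0.56). Naive cells and plasmablasts differed by -0.037 (95% interval -0.29 to 0.216), which with scaling by library size alone was -0.32 and called by the F-test (adjusted p = 0.036). The gene overlaps Pkd1 by 699 bases. Pkd1 had 748 to 2245 counts and changed by -0.79 to 3 h and by 1.33 to plasmablasts, and whether reads were assigned by strand was not given in the sources used here.

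Ddit4 (Entrez 74747, chr10:59949675-59951770) had the most uneven course. It stood at 54.89 and 35.60 RPKM in the naive libraries, then 7.97 and 15.53 (3 h), 31.45 and 25.97 (10 h), 20.15 and 18.72 (33 h), 43.36 and 38.24 (expanded) and 17.97 and 20.16 (plasmablast). The naive replicates were far apart, with the expanded libraries between them, and both 3 h libraries were below all others. In naive replicate 1 the myeloid marker sum was also the higher of the pair, as given above. To 3 h it fell by 1.92 on the log2 scale (SE 0.267, glmTreat adjusted p = 0.00037), and it stayed DE under each of the 13 alternatives (-2.53 to -1.54).

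After 3 h, Ddit4 alternated between higher and lower levels. It rose by 1.27 to 10 h (SE 0.267, glmTreat adjusted p = 0.016). That call was lost without 3 h replicate 1 (0.89, adjusted p = 0.13) and without 10 h replicate 1 (1.12, adjusted p = 0.079), and with DESeq2's Wald test (adjusted p = 0.057) and only the 4 libraries compared (0.061). The next change was -0.56 to 33 h (F-test adjusted p = 0.099), called with no filter on low counts (-0.53, adjusted p = 0.00014) and with only the 4 libraries compared (-0.53, adjusted p = 0.0066). To expanded cells it rose by 1.07 by the F-test (SE 0.257, adjusted p = 0.0075), with a glmTreat adjusted p of 0.1, and without 33 h replicate 2 the F-test gave 0.054. The rise was DE with no filter on low counts (adjusted p = 0.00053) and with only the 4 libraries compared (0.0013). To plasmablasts it fell by 1.10 (SE 0.26, glmTreat adjusted p = 0.045), and leaving out any of the 4 libraries ended that call (adjusted p 0.067 to 0.19), as did DESeq2 size factors (0.051) and DESeq2's Wald test (0.23). The F-test gave adjusted p = 0.0042 for this decrease. Plasmablasts remained at 0.421 of the naive level (-1.25, SE 0.26, glmTreat adjusted p = 0.0094), a call lost without naive replicate 1 (-0.90, adjusted p = 0.096) or plasmablast replicate 1 (-1.16, adjusted p = 0.056), and with only the 4 libraries compared (-1.30, adjusted p = 0.091).

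Sesn1 (Entrez 140742, chr10:41810574-41908436) encodes a sestrin known as a p53 and FoxO target. It measured 41.60 and 40.98 RPKM in the naive libraries, then 10.23 and 12.14 (3 h), 12.01 and 15.21 (10 h), 11.63 and 6.68 (33 h), 6.39 and 5.80 (expanded) and 12.24 and 11.41 (plasmablast). All 10 activated libraries lay far below both naive ones, and expanded cells were below all other stages. To 3 h it fell by 1.88 on the log2 scale (SE 0.205, glmTreat adjusted p = 4.8e-05) and stayed DE under each of the 13 alternatives (-2.09 to -1.76). By the F-test it further fell by 0.56 to 33 h (SE 0.204, adjusted p = 0.041) and fell by 0.59 to expanded cells (SE 0.209, adjusted p = 0.041). These rest on the 33 h replicates, which differ: without 33 h replicate 1 the values were -1.02 and -0.13, and without 33 h replicate 2 they were -0.22 and -0.94. The first was also not called without 10 h replicate 2 (-0.38, adjusted p = 0.25), nor the second without either expanded library (adjusted p 0.1 and 0.19), and neither was called with only the 4 libraries compared (adjusted p = 0.18 and 0.07). The F-test called the difference to 10 h (0.28, adjusted p = 0.26) with scaling by library size alone (0.61, adjusted p = 0.027) and with no filter on low counts (0.29, adjusted p = 0.043). To plasmablasts it rose by 0.96 (SE 0.21, F-test adjusted p = 0.0022, glmTreat adjusted p = 0.057), and 4 alternatives took the rise past the 1.5-fold test (adjusted p 0.00025 to 0.05).

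Sesn3 (Entrez 75747, chr9:14276301-14326134), another sestrin known as a FoxO target, started as high and ended lower. Its level was 49.23 and 51.96 RPKM in the naive libraries, then 19.27 and 12.04 (3 h), 17.36 and 19.33 (10 h), 22.19 and 18.07 (33 h), 17.13 and 16.72 (expanded) and 9.93 and 10.97 (plasmablast). Every activated library lay below both naive ones, and the plasmablast libraries lay below all others. To 3 h it fell by 1.70 on the log2 scale (SE 0.173, glmTreat adjusted p = 2.6e-05) and stayed DE under each of the 13 alternatives (-2.07 to -1.42). Neither test called a change at the next 3 steps, where the differences were 0.24, 0.14 and -0.25. The F-test called the first of them with scaling by library size alone (0.58, adjusted p = 0.0077) and without 3 h replicate 1 (0.61, adjusted p = 0.0012). To plasmablasts it fell by 0.69 by the F-test (SE 0.177, adjusted p = 0.0049; without plasmablast replicate 1, 0.051), while Sesn1 rose at the same step. With scaling by library size alone this was DE (-1.03, adjusted p = 0.0087). From naive cells to plasmablasts it fell by 2.27 (SE 0.175, glmTreat adjusted p = 6.9e-07).

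The third sestrin, Sesn2, belongs to the wider pathway list and is named here after its values were seen, because it completes the family. Sesn2, known to be induced by stress through Atf4, was at 3.86 and 4.08 RPKM in the naive libraries, then 5.12 and 20.1 (3 h), 17.2 and 17.1 (10 h), 5.33 and 6.00 (33 h), 14.8 and 16.2 (expanded) and 14.1 and 16.2 (plasmablast). It was lowest in naive cells, the stage in which Sesn1 and Sesn3 were highest. Its difference to 3 h was 1.70 on the log2 scale (SE 0.451, glmTreat adjusted p = 0.022), with the 3 h replicates far apart, and from naive cells to plasmablasts it was 1.94 (SE 0.448, glmTreat adjusted p = 0.0089).

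Pik3ip1 (Entrez 216505, chr11:3319241-3342971) had the largest decrease of the 9 by 3 h, except without 3 h replicate 2 (-2.40, with Ddit4 at -2.53). It stood at 15.55 and 16.66 RPKM in the naive libraries, then 3.11 and 2.40 (3 h), 2.24 and 3.24 (10 h), 4.04 and 2.48 (33 h), 4.65 and 4.52 (expanded) and 3.13 and 2.23 (plasmablast). All 10 activated libraries were well below both naive ones, and of these the expanded libraries were the highest. To 3 h it fell by 2.56 on the log2 scale (SE 0.244, glmTreat adjusted p = 4.7e-06) and stayed DE under each of the 13 alternatives (-2.78 to -2.40). Neither test called a change at the next 3 steps, but the F-test called the one to expanded cells (0.48, adjusted p = 0.13) when 33 h replicate 1 was left out (0.89, adjusted p = 0.023) and when genes with low counts were not filtered out (0.44, adjusted p = 0.029). To plasmablasts it fell by 0.78 by the F-test (SE 0.248, adjusted p = 0.017), which was lost without plasmablast replicate 2 (-0.52, adjusted p = 0.17) or expanded replicate 1 (-0.76, adjusted p = 0.066) and was DE with scaling by library size alone (-1.12, adjusted p = 0.024). Plasmablasts held 0.166 of the naive level (-2.59, SE 0.241, glmTreat adjusted p = 2.9e-06).

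For the steps after 3 h, calls among the 9 genes are given beside the share of all genes called. A gene that was not called was not shown to be unchanged. From 3 h to 10 h, glmTreat called 1 rise (Ddit4), beside 17.4% of all genes, and 0 decreases, beside 13.4%. No decrease had an unadjusted p below 0.05, and DESeq2's Wald test against 1.5-fold called 0 in either direction. The F-test called 3 rises (32.1% of all genes) and 2 decreases (30.2%) at this step. From 10 h to 33 h, glmTreat called 0 of the 9 up or down, beside 10.1% and 4.45% of all genes, with 0 at an unadjusted p below 0.05 and 0 by DESeq2. The F-test called 1 rise (23.2% of all genes) and 3 decreases (22.2%). The widest interval of the 9 at this step was that of Ddit4, from -1.13 to 0.00556 on the log2 scale.

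Between 33 h and expanded cells, which had divided, glmTreat again called 0 up and 0 down, beside 6.94% and 3.66% of all genes. DESeq2 called 0, and at an unadjusted p below 0.05 there was 1, the rise of Ddit4. The F-test called 1 rise (18.5% of all genes) and 3 decreases (21.2%). Between expanded cells and plasmablasts, both sorted at day 4, glmTreat called Rheb up and Ddit4 down, 1 of 9 each, beside 13.9% and 12.2% of all genes. By the F-test 4 rose (Rptor, Rheb, Tsc2 and Sesn1; 27.2% of all genes) and 3 fell (Sesn3, Ddit4 and Pik3ip1; 29.7%).

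The net comparison of naive cells with plasmablasts called the genes that the first 3 h had called, with the same directions. Mtor and Rheb were DE upward (2 of 9, beside 26.6% of all genes), and Sesn1, Sesn3, Ddit4 and Pik3ip1 downward (4 of 9, beside 23.4%). This comparison shares its naive libraries with the first step. By the F-test 2 rose and 5 fell, beside 38.2% and 35.9%. Mtor differed by 0.80 on the log2 scale (SE 0.0851, glmTreat adjusted p = 0.0079) and Rheb by 0.97 (SE 0.0836, adjusted p = 0.00015), and neither passed with scaling by library size alone (0.51 and 0.68, adjusted p = 0.72 and 0.08). Mtor also missed the threshold without naive replicate 2 (0.75, adjusted p = 0.051) and with no filter on low counts (0.76, adjusted p = 0.051). Sesn1 differed by -1.80 (SE 0.204, glmTreat adjusted p = 5.7e-05).

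**Figure D2:**
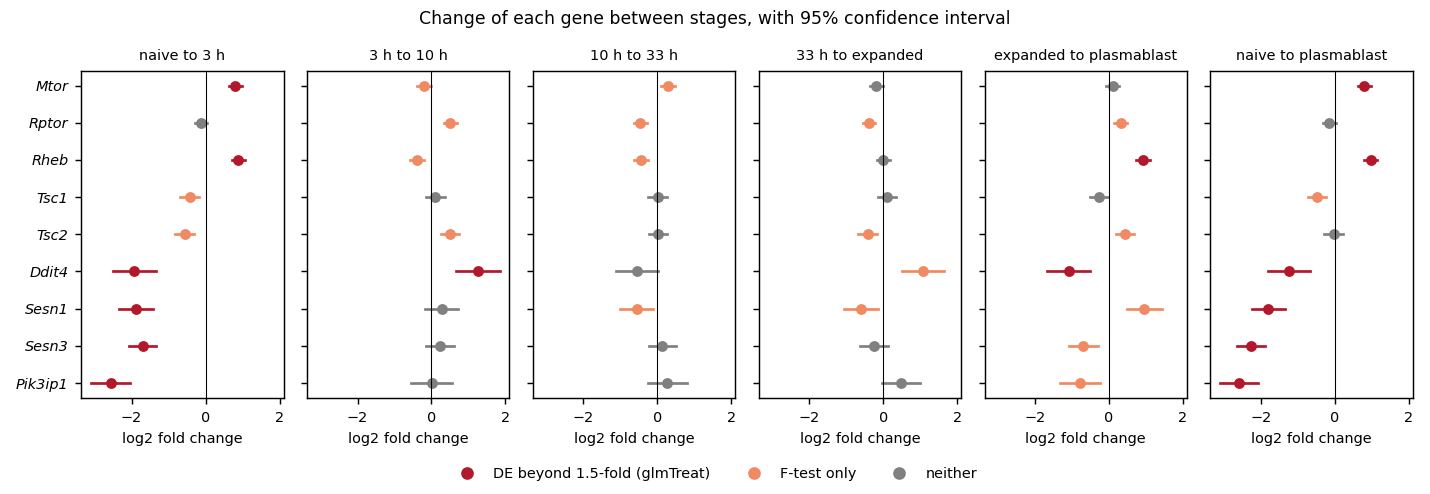
log2 fold change (horizontal axis, later stage over earlier) of each gene in 6 comparisons, with points for the edgeR estimate and lines for its 95% confidence interval, dark red for DE beyond 1.5-fold, orange for called by the F-test alone and grey for neither. The 4 brakes Sesn1, Sesn3, Ddit4 and Pik3ip1 lie between -2.56 and -1.70 at the first step, and from 10 h to expanded cells no point is dark red.

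Ratios of 2 genes within a library do not depend on how libraries are scaled, and they show unequal change of the pair. The Mtor to Rptor ratio of RPKM was 0.588 and 0.565 in the naive libraries, then 1.07 and 1.13 (3 h), 0.669 and 0.67 (10 h), 1.15 and 1.08 (33 h), 1.26 and 1.31 (expanded) and 1.14 and 1.08 (plasmablast). It was low in naive and 10 h libraries and above 1 in all 8 others. The Rheb to Tsc1 ratio was 4.02 and 4.44 in the naive libraries, then 9.95 and 11.1 (3 h), 8.04 and 6.85 (10 h), 5.37 and 5.49 (33 h), 4.97 and 5.1 (expanded) and 11 and 12.1 (plasmablast). Thus transcripts of the activator were highest against those of its brake at 3 h and in plasmablasts. Against Tsc2, the Rheb ratio in the naive libraries was 1.83 and 1.59, rising to 5.43 and 4.1 (3 h) and 3.5 and 3.38 (plasmablast), with the other 3 stages between 1.75 and 2.55. Sesn3 to Sesn1 was 2.68 and 2.88 in expanded cells and 0.811 and 0.961 in plasmablasts, which lay below all other libraries. At 33 h it was 1.91 and 2.7, overlapping expanded cells, and at 3 h the replicates were far apart (1.88 and 0.991). With 2 libraries in each stage an exact two-sided permutation test of such a ratio cannot give a p below 0.333, so none is given.

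**Figure D3:**
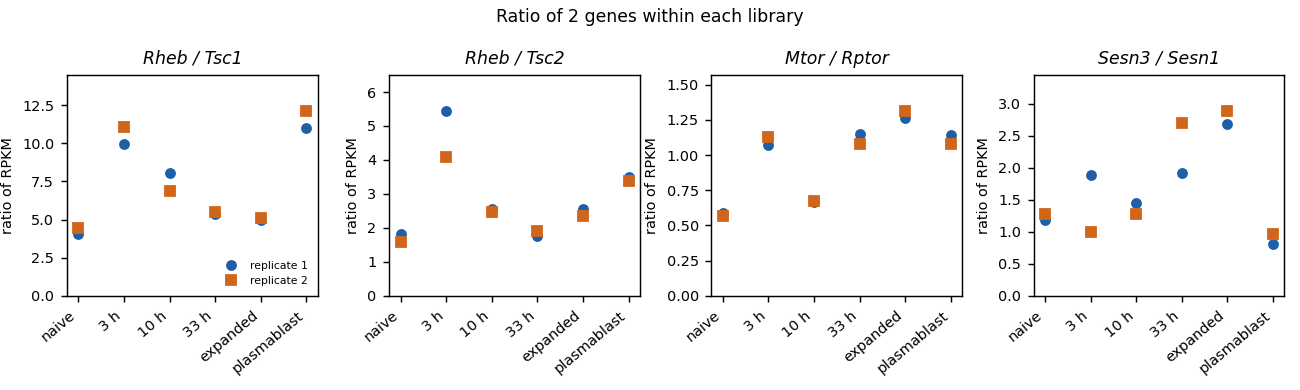
Ratio of RPKM of 2 genes within each library (vertical axis, no unit, starting at 0) against stage, with replicate 1 as circles and replicate 2 as squares. Rheb over Tsc1 and over Tsc2 is highest at 3 h and in plasmablasts, Mtor over Rptor is low in naive cells and at 10 h, and Sesn3 over Sesn1 drops from 2.68 and 2.88 in expanded cells to 0.811 and 0.961 in plasmablasts.

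A list of 84 other genes of the PI3K and mTORC1 pathway, of which 82 were tested, gave the setting. From naive to 3 h, 11 of 82 were DE upward and 24 downward, with a median log2 change of -0.146 against -0.0313 over all genes tested. Of the 11 PI3K subunits and adaptors 0 were DE upward and 6 downward (median -0.903), beside 21.0% and 24.3% of all genes. The F-test called 1 of them up and 8 down, beside 34.7% and 36.3%. The list of amino acid sensors and folliculin, with 4 genes tested, had a lower median (-1.42). By glmTreat it had 0 up and 3 down, beside the same 21.0% and 24.3%. Pik3cg, the catalytic subunit p110γ, went from 35.9 and 34.6 RPKM to 4.54 and 4.79 (-2.92, SE 0.13, glmTreat adjusted p = 4.1e-09). Klf2, a transcription factor of lymphocyte quiescence, went from 525 and 471 RPKM to 98.6 and 63.5 (-2.62, SE 0.219, adjusted p = 5e-06). Among genes DE upward the largest rises were in Atf4, the stress-response factor, from 27.2 and 25.1 RPKM to 209 and 233 (3.08, SE 0.12, adjusted p = 1.3e-09), and Prkab2, a regulatory subunit of the energy sensor AMPK, from 1.79 and 1.79 to 8.50 and 8.02 (2.20, SE 0.148, adjusted p = 2.2e-07). For each of these 4 genes the naive and 3 h libraries did not overlap.

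From 3 h to 10 h, 12 of the 82 were DE upward and 10 downward, beside 17.4% and 13.4% of all genes (median 0.0427, all genes 0.0178). Prkab2 went back to 1.71 and 2.08 RPKM (-2.13, SE 0.145, glmTreat adjusted p = 8.8e-07), and Inpp4b, a phosphatase that acts on PI3K products, went from 1.96 and 1.99 to 0.585 and 0.359 (-2.05, SE 0.2, adjusted p = 1.6e-05). The largest fitted rises were in Ddit4l, a relative of Ddit4, and in Prkaa2, an AMPK catalytic subunit, both at or below 0.313 RPKM in all 4 libraries, and no fold is given. From 10 h to 33 h, 3 were DE upward and 6 downward, beside 10.1% and 4.45% of all genes (median -0.129, all genes -0.0243). Inpp4b recovered to 1.48 and 1.56 RPKM (1.67, SE 0.196, adjusted p = 0.00025), and Pik3r3, a PI3K regulatory subunit, rose from 0.137 and 0.159 to 0.507 and 0.359 (1.57, SE 0.274, adjusted p = 0.0045). Ddit3, the stress factor CHOP, went from 19.8 and 25.3 RPKM to 3.74 and 3.44 (-2.64, SE 0.214, adjusted p = 3.3e-06), and Ddit4l fell again from its low level.

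From 33 h to expanded cells 3 of the 82 were DE upward and 1 downward, beside 6.94% and 3.66% of all genes (median 0.0308, all genes -0.0224). Pik3r5, a regulatory subunit that partners p110γ, rose from 2.27 and 2.26 RPKM to 10.8 and 12.3 (2.35, SE 0.152, glmTreat adjusted p = 2.2e-06), and Rragd, a Rag GTPase that recruits mTORC1 to lysosomes, rose from 0.0342 and 0.0565 to 0.164 and 0.244 (2.21, SE 0.472, adjusted p = 0.0098). Rragd was at or below 0.244 RPKM in all libraries of this step, so the size of its rise is uncertain. To plasmablasts 10 rose and 7 fell (median 0.111, all genes -0.0462). Pik3cg reached 98.8 and 96 RPKM from 10.1 and 9.63 (3.30, SE 0.126, adjusted p = 3.9e-09), and Rragd 1.70 and 1.84 RPKM (3.13, SE 0.314, adjusted p = 9e-06). Klf2 dropped from 63 and 53.5 RPKM to 1.07 and 1.17 (-5.70, SE 0.33, adjusted p = 1.5e-07), and Prkab2 from 0.515 and 0.554 to 0.0594 and 0.0412 (-3.41, SE 0.376, adjusted p = 3e-06). Rragd before this step and Prkab2 after it were at or below 0.244 RPKM, so the sizes of their changes are uncertain. Of the 9 Rag GTPase and Ragulator genes 3 were DE upward and 0 downward at this step, beside 13.9% and 12.2% of all genes. The F-test called 6 and 0, beside 27.2% and 29.7%. The same list had 0 DE upward and 3 downward from naive to 3 h, beside 21.0% and 24.3% of all genes. From naive to plasmablast it had 2 and 0, beside 26.6% and 23.4%.

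Across the whole course, naive to plasmablast, 15 of the 82 were DE upward and 16 downward (median 0.0289, all genes 0.0229). Klf2 had the largest decrease (-8.79, SE 0.329, glmTreat adjusted p = 1.4e-09), followed by Prkab2 (-5.15, SE 0.369, adjusted p = 2.5e-09). Prkab2 was at only 0.0594 and 0.0412 RPKM in plasmablasts, so the size of its decrease is uncertain. Atf4 was at 146 and 131 RPKM in plasmablasts (2.40, SE 0.12, adjusted p = 6.7e-09), and Prkaa2 was at or below 0.0344 RPKM in all 4 libraries although the fit called it up. Of the 9 mTORC1 substrates 4 were DE upward and 2 downward (median 0.454), beside 26.6% and 23.4% of all genes.

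**Figure D4:**
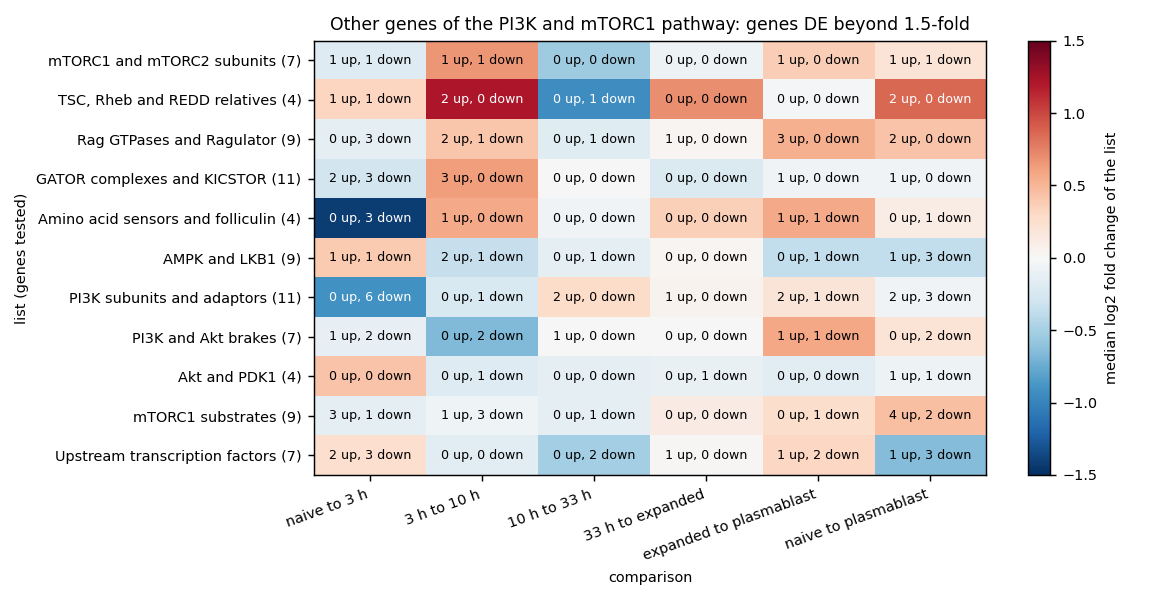
Median log2 fold change (colour) of 11 lists of other PI3K and mTORC1 pathway genes (rows, with the number tested) in 6 comparisons (columns), each cell giving how many genes were DE beyond 1.5-fold up and down. From naive to 3 h the PI3K subunits and adaptors have 0 up and 6 down, and the amino acid sensors and folliculin 0 up and 3 down. The Rag GTPases and Ragulator have 0 up and 3 down at that step, and 3 up and 0 down from expanded cells to plasmablasts.

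Over the 12 libraries Pearson's r of log2 CPM was highest, among pairs of the 9 genes, between Sesn3 and Pik3ip1 (0.89). Tsc1 had 0.869 with Pik3ip1 and 0.847 with Sesn3, and Sesn1 had 0.738 with Pik3ip1 and 0.73 with Sesn3. Ddit4 had 0.666 with Tsc1, 0.607 with Pik3ip1, 0.497 with Sesn3 and 0.308 with Sesn1. Mtor ran against these genes, with -0.837 with Sesn1, -0.864 with Sesn3 and -0.883 with Pik3ip1, and -0.237 with Rptor. All these values share libraries and scaling, and the stage means dominate them, so they are a description only.

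The tested genes whose log2 CPM followed each of the 9 most closely over the 12 libraries were found in the same way. Nearest to Mtor were Tex30 (r = 0.97), Wrap53 (0.968) and Fancc (0.967), and nearest to Rptor were Aspscr1 (0.95), Macrod1 (0.945) and Zpbp (0.941). Rheb was followed by Bcl2l11 (0.981), which encodes the death-promoting protein Bim, Rbsn (0.976) and Plbd2 (0.971). For Tsc1 the nearest were Plekhn1 (0.903), Smim5 (0.896) and Tlr12 (0.891), and for Tsc2 Rusf1 (0.962), Zswim1 (0.942) and Tgfbrap1 (0.929). Sesn1 was nearest to Rfk (0.978), Cib3 (0.973) and Otud1 (0.972), and Sesn3 to Gpat3 (0.98), Rhbdf2 (0.975) and Dmac2 (0.974). Ddit4 had Tmem106b (0.921), Snhg10 (0.913) and Cass4 (0.912), and Pik3ip1 had Slc28a2b (0.977), Rnf144b (0.971) and Lcn2 (0.968). Lcn2 is also made by neutrophils, whose markers were in the naive libraries as given above.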

How the data were processed

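Poly(A) RNA from 12 libraries was sequenced and, per the labels and the study's methods, reads were assigned by featureCounts to Entrez genes on mm10 (GRCm38). The deposited values are raw counts per gene with exon lengths. The strand and pair settings were not given in the sources used here. The members and gene lists were chosen with earlier results of these data known.

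From 27179 genes, mitochondrial (15), ribosomal RNA (33), X and Y (1279), variable immunoglobulin (248) and genes without an annotation entry (1904) were removed, as in the study, leaving 23700. Gene positions and promoters come from RefSeq (GRCm38.p6), to which 25275 IDs matched. After filterByExpr, 12750 genes were fitted with edgeR 4.0.16 (TMM, robust quasi-likelihood, all 12 libraries, R 4.3.3). DE means glmTreat beyond 1.5-fold with Benjamini-Hochberg adjusted p below 0.05. The quasi-likelihood F-test calls changes of any size. RPKM used TMM-scaled library sizes. DESeq2 1.42.0 was an alternative. The code was tested on simulated data. The sources name replicates but not whether they came from separate mice, so p-values measure the spread between these libraries, which differed by more than sampling noise. All 9 members are named, with, per comparison, up to 2 DE pathway genes in each direction, taken by the size of the change (1 gene that this rule names is not reported here), and, per member, the 3 most correlated genes outside Gm and Rik names. With 2 libraries per stage, per-stage errors are shown as both values.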

Additional observations from a re-analysis of the deposited data

How the results depend on the processing

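The 9 genes were refitted under 9 other scalings, filters, tests and sample choices and without each library of a comparison in turn, 13 alternatives for each result. The decreases of Sesn1, Sesn3, Ddit4 and Pik3ip1 to 3 h were DE in all 13. Scaling by library size alone moved the median of all genes by -0.209, 0.33, -0.0582, -0.0081, -0.338 and -0.282 on the log2 scale, in the order of the 6 comparisons, whereas DESeq2 size factors moved it by between -0.0508 and 0.0318. From 3 h to 10 h the 9 genes gave 3 DE with library size alone, 0 with DESeq2's Wald test, 0 with only the 4 libraries compared and 0 to 1 without 1 library, against 1. From 10 h to 33 h, leaving out 1 library gave 0 to 1 DE and 2 to 3 changed by the F-test, against 0 and 4. From 33 h to expanded cells, no filter on low counts and only the 4 libraries each gave 1 DE against 0, and leaving out 1 library gave 0 to 1 DE, 2 to 3 changed by the F-test against 4, and 2 to 4 DE of the pathway list against 4. From expanded cells to plasmablasts, DESeq2 gave 1 DE against 2, and leaving out any 1 library gave 1. The cause of these differences was not tested.

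Sign changes occurred at small values. With library size alone, Mtor from 3 h to 10 h was 0.12, Tsc1 and Tsc2 from 10 h to 33 h were -0.052 and -0.043, and Mtor and Rptor from expanded cells to plasmablasts were -0.24 (F-test adjusted p = 0.033) and -0.030. With the removed genes kept, Tsc1 and Tsc2 from 10 h to 33 h were -0.023 and -0.013. Pik3ip1 from 3 h to 10 h was -0.073 with DESeq2 size factors, -0.078 with DESeq2's test and -0.0047 with 4 libraries, and Rheb from 33 h to expanded cells was 0.024, 0.023, 0.035 and, with at least 10 counts in every library, 0.031. Leaving out 1 library gave -0.058 to 0.61 for Sesn3 and -0.27 to 0.25 for Pik3ip1 from 3 h to 10 h. From 10 h to 33 h it gave -0.090 to 0.12 for Tsc1, -0.090 to 0.12 for Tsc2, -0.018 to 0.28 for Sesn3 and -0.13 to 0.58 for Pik3ip1. It gave -0.049 to 0.043 for Rheb from 33 h to expanded cells and -0.088 to 0.016 for Tsc2 from naive cells to plasmablasts.

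Deviations of same-numbered libraries correlated between -0.139 and 0.0841 in 15 pairs of stages. These values cannot tell whether same-numbered libraries shared mice or cultures. A fit with the replicate block ended the F-test calls of Mtor from 3 h to 10 h (-0.21, adjusted p = 0.059) and of Sesn1 from 33 h to expanded cells (-0.59, adjusted p = 0.051) and no other call of the 9 genes.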
